A study of Homo sapiens with 4 samples.

Results

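The histone and DNA methylation enzymes described here are the genes whose symbols name a lysine methyltransferase (KMT2 to KMT5, SETD, SETDB, NSD, EZH, SUV39H, EHMT, DOT1L), an arginine methyltransferase (PRMT), a DNA methyltransferase (DNMT), a lysine demethylase (KDM) or a TET DNA oxidase. Of 60609 gene identifiers in the deposited table, 66 symbols matched, 3 antisense or divergent transcripts were left out, and 63 members remained. They comprised 41 writers, which place methyl groups, and 22 erasers, which remove or oxidize them. The members were selected by their symbols, but this choice was made with earlier results of these data known. The cells were CCRF-CEM, an established human T cell leukaemia line, all with the genotype CCRF-CEM/HA-AMPKa2, which names a tagged AMPK alpha 2 subunit, a part of an energy-sensing kinase. All cells were grown in RPMI with fetal bovine serum. The Ctrl group had control medium and the No glucose group had medium lacking glucose, each for 24 hours, with 2 libraries in each group. Whether the derivative is a clone or a pool is not given in the sources used here.

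Histone lysine, histone arginine and DNA methyltransferases all take their methyl group from S-adenosylmethionine (SAM), which is made from methionine. Most lysine demethylases belong to the JmjC family, which, like the TET enzymes, uses alpha-ketoglutarate, oxygen and iron. KDM1A and KDM1B use a flavin cofactor in place of alpha-ketoglutarate. Methylation of lysine 4 of histone H3 (H3K4) marks promoters and enhancers, that of H3K36 marks transcribed gene bodies, and that of H3K9 and H3K27 is found at silenced chromatin. Several of these enzymes, among them EZH2, KMT2A, KDM6A and TET2, are known for mutations in leukaemia.

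Total RNA was sequenced, and the recovered reads per library were 96698709 in CTRL_7 and 24513840 in CTRL_8 (Ctrl), and 19035535 in ONG_9 and 20081266 in ONG_10 (No glucose). CTRL_7 was thus the deepest. Levels below are normalized counts, that is, reads divided by a size factor for each library. Fold changes are No glucose minus Ctrl on the log2(normalized count + 1) scale with their standard error (SE). A gene was called at an adjusted p under 0.05 in the limma fit over all 27486 genes tested. Separate cultures are not stated for the replicates in the labels; the p-values therefore cover only variation among these 4 libraries, which may be technical. In bulk RNA, fewer cells of a type and less RNA per cell cannot be told apart. Of 13 T-lineage markers 10 were tested and all were detected, with CD3D at 17267 to 18922 normalized counts and LCK at 16504 to 18729.6, although CD2 was at 175 to 203 and PTCRA, a pre-T receptor gene, at 2.68 to 7.02. CD3E was called higher (0.54 ± 0.05, adjusted p = 1.18e-05), and CD3G (-0.45 ± 0.05, adjusted p = 3.51e-05) and CD7 (-0.92 ± 0.22, adjusted p = 0.00773) were called lower. CD7 was at 756 and 666 in Ctrl and 270 and 523 in No glucose. The summed T-lineage markers were at 72733 and 71113 in Ctrl and 69781 and 70433 in No glucose. The B cell marker MS4A1, the myeloid marker MPO and the erythroid marker HBB were at or near 0, whereas CD79A, a B cell marker, was at 423 to 670.5 and EPCAM, an epithelial marker, at 383 to 535. EPCAM was called lower (-0.33 ± 0.10, adjusted p = 0.0198). COL1A1, another marker of adherent cells, was low, at 2.06 and 2.68 in Ctrl and 7.58 and 25.3 in No glucose. It was called higher (2.16 ± 0.59, adjusted p = 0.0146). The summed B cell markers were at 907 and 894 in Ctrl and 523 and 536 in No glucose, with 3 of 4 tested called lower. The part of these markers in the results was not tested. PRKAA2, the gene of the tagged subunit, was at 409 and 409 in Ctrl and 670.2 and 662 in No glucose; the endogenous gene and the transgene cannot be told apart in these counts.

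After 24 hours without glucose the mRNAs of most erasers were higher, while the writers were divided. Of the 59 members tested, 26 rose, 18 fell and 15 were not called. Over all genes tested, 14.4% were called higher and 20.7% lower, and over 10656 protein-coding genes averaging 50 normalized counts or more the shares were 18.9% and 47.2%. In either direction 35.1% of all genes and 66% of these protein-coding genes were called. Among 20 tested erasers 14 rose and 2 fell (KDM1A and KDM2B), with a median fold change of 0.42. Among 39 tested writers 12 rose and 16 fell, with a median of -0.06. The median was 0.04 over all genes and -0.20 over the protein-coding genes. The share called higher was thus 30.8% of writers and 70.0% of erasers beside 18.9% of the protein-coding genes, and the share called lower was 41.0% of writers and 10.0% of erasers beside 47.2%.

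**Figure D1:**
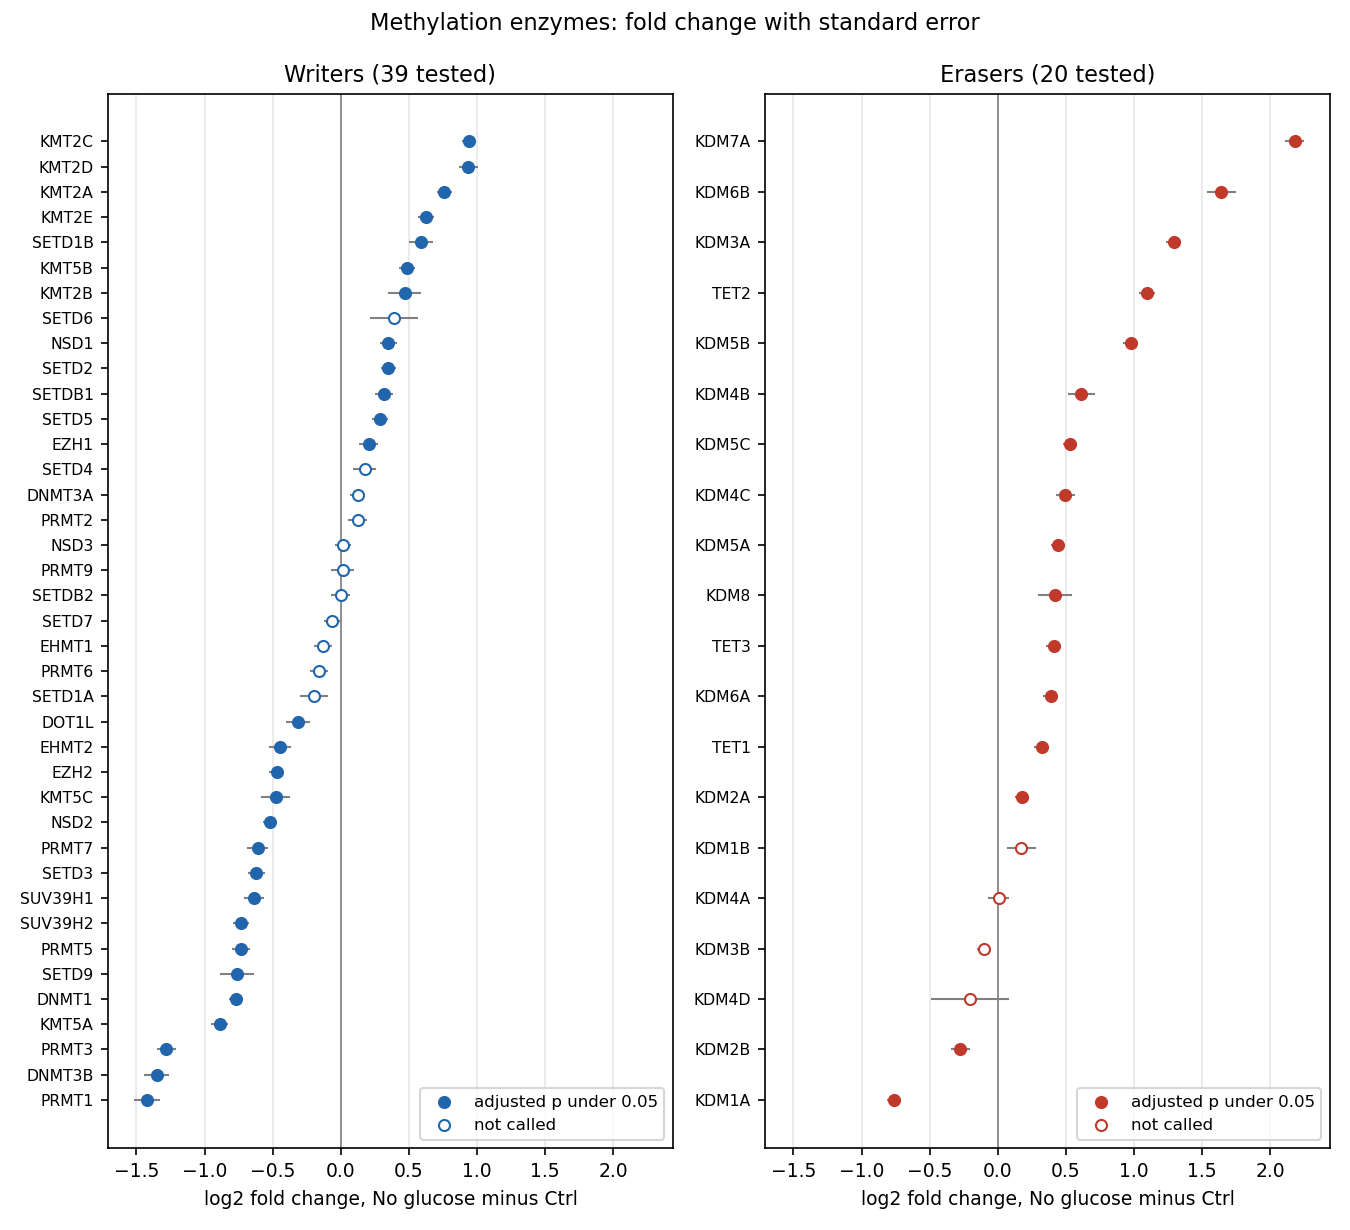
Fold change of each tested member (points; No glucose minus Ctrl, log2 scale) with its SE (bars), writers on the left and erasers on the right; filled points have an adjusted p under 0.05. The erasers run from KDM1A at -0.76 to KDM7A at 2.18, and the writers from PRMT1 at -1.42 to KMT2C at 0.94.

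The groups did not overlap for most members. Both No glucose libraries lay above both Ctrl libraries for 15 erasers and below for 3; for writers the counts were 16 above and 20 below. Over the protein-coding genes 27.4% lay above and 57.9% below, 85.3% in all. Over all genes tested the shares were 35.1% above, 31.7% below and 66.8% in all. The counts of writers depended on the libraries and on the scaling. Without CTRL_7, 7 writers were called higher and 13 lower, and 11 erasers higher and 1 lower; without CTRL_8 the counts were 7 and 16, and 11 and 1. Scaled to library totals, which moved the median of all genes from 0.04 to 0.23 with limma and to 0.28 with edgeR, 19 writers were called higher and 13 lower by limma and the writers' median became 0.15, so its sign depends on the scaling. The erasers' median was then 0.63, with 17 higher and 1 lower.

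**Figure D2:**
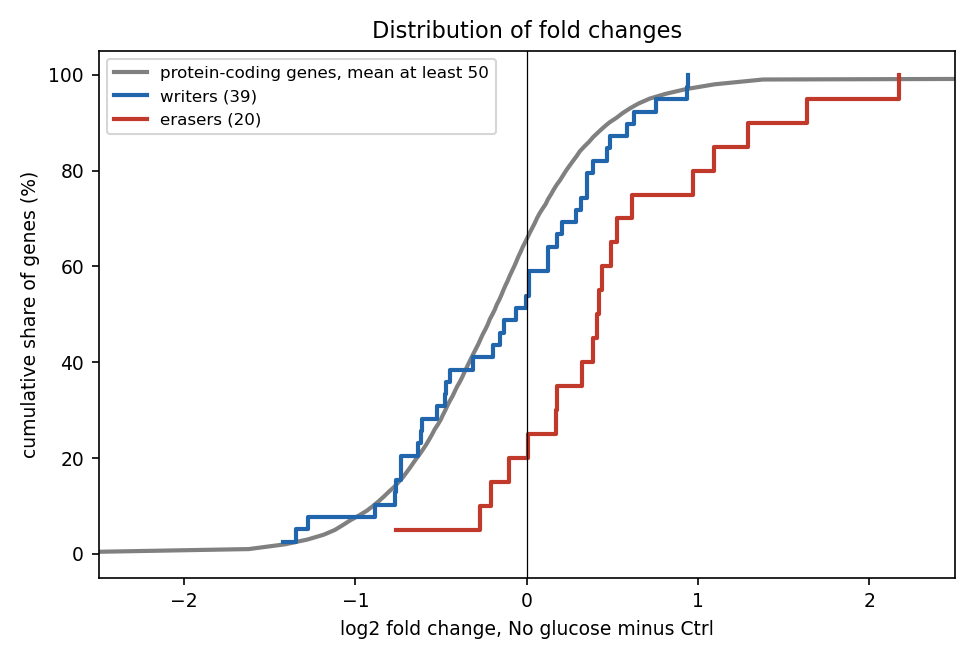
Cumulative share of genes (vertical axis, %) up to each log2 fold change (horizontal axis, No glucose minus Ctrl) for 39 writers, 20 erasers and the protein-coding genes with a mean of at least 50. The eraser curve lies to the right of the others, with medians of 0.42 for erasers, -0.06 for writers and -0.20 for the protein-coding genes.

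The erasers of H3K9 held the largest rise of all members. By limma 4 of 7 tested rose (57.1%), beside 18.9% of the protein-coding genes. By limma 0 fell, 0 also at an unadjusted p under 0.05 and with DESeq2, and 1 (KDM3B) with edgeR under TMM scaling. KDM7A, a JmjC enzyme that acts on dimethylated H3K9 and H3K27, was at 930.2 and 1011 in Ctrl and 4569.9 and 4216 in No glucose. Both No glucose libraries were far above both controls, and KDM7A rose by 2.18 ± 0.07 (adjusted p = 8.06e-09). Its gene lies on the minus strand of chr7:140084746-140177035 (GRCh38, GENCODE 29). KDM3A, a JmjC enzyme for mono- and dimethylated H3K9 known to respond to hypoxia, is at chr2:86440647-86492716 on the plus strand. Its normalized counts were 3208 and 3249 in Ctrl and 8149.6 and 7665 in No glucose. The groups were far apart, with a rise of 1.29 ± 0.06 (adjusted p = 4.11e-08). KDM4B and KDM4C act on trimethylated H3K9 and H3K36. KDM4B was at 2292 and 2219 in Ctrl and 3040.0 and 3913 in No glucose and rose by 0.61 ± 0.10 (adjusted p = 4.28e-04). KDM4C was at 1097 and 1184 in Ctrl and 1647 and 1566 in No glucose and rose by 0.49 ± 0.07 (adjusted p = 2.05e-04). The groups did not overlap for either gene, nor for 85.3% of the protein-coding genes. The No glucose libraries of KDM4B differed from each other more than its Ctrl libraries did.

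Other KDM3 and KDM4 members were not called by limma. KDM3B was at 8407 and 8418 in Ctrl and 8009 and 7672 in No glucose, a difference of -0.10 ± 0.05 (adjusted p = 0.155). Its sign depended on the scaling: it was called lower with edgeR under TMM scaling and without ONG_9, and higher, at 0.11, with library totals. KDM4A, at 1043 and 1089 in Ctrl and 1134 and 1010.2 in No glucose, differed by 0.01 ± 0.08 (adjusted p = 0.96), and its libraries overlapped. Of the exon bases of KDM4A, 40.2% also belong to AL451062.3 on the same strand, so reads could be split between these genes. KDM4D was low, at 25.8 to 43.6 normalized counts, and was not called (adjusted p = 0.631). KDM4E was at 0 in all libraries and was not tested.

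Both H3K27 erasers rose, beside 18.9% of the protein-coding genes called higher. Both are in the longest of 5 classes of transcript length, where that share was 30.5%. KDM6B (JMJD3), a JmjC enzyme known as inducible in immune cells, was at 252 and 266 in Ctrl and 734 and 892 in No glucose. The lower No glucose value was still well above both controls. KDM6B, at chr17:7839904-7854796 on the plus strand, rose by 1.64 ± 0.11 (adjusted p = 5.25e-07). KDM6A (UTX), its X-linked paralog, was at 3784 and 3808 in Ctrl and 5137 and 4803 in No glucose and rose by 0.39 ± 0.06 (adjusted p = 2.48e-04). Per kb of transcript, KDM6A was 17.0 and 16.2 times KDM6B in the Ctrl libraries and 7.93 and 6.10 times in the No glucose libraries. KDM6A thus stayed the more abundant of the pair.

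**Figure D3:**
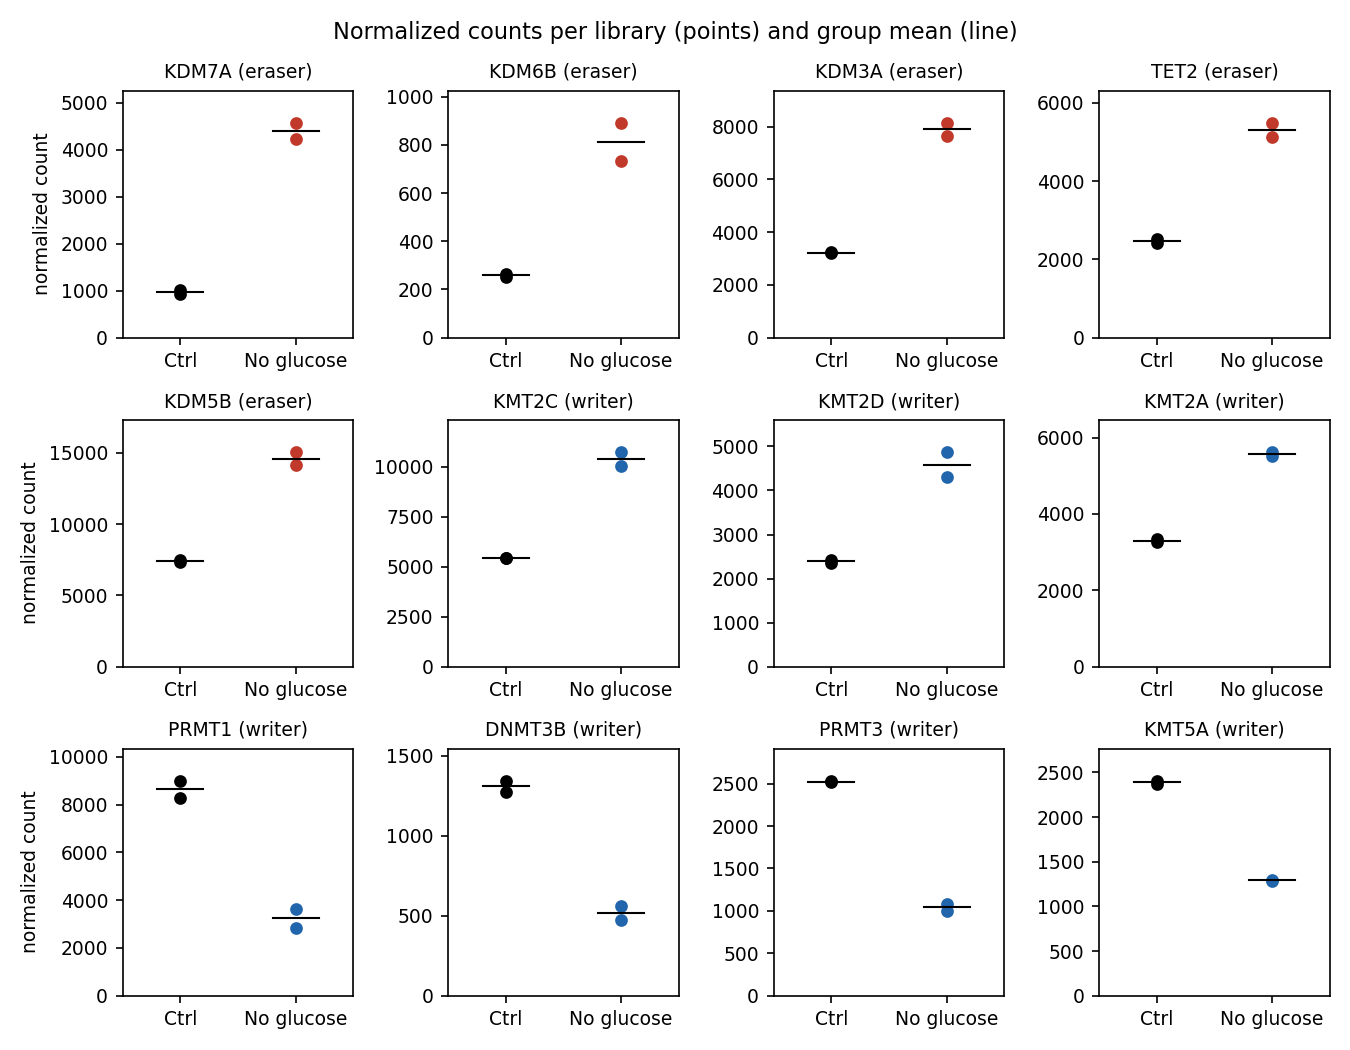
Normalized count of 12 members in each library (points) with the group mean (line), vertical axes from 0. In each of the 8 panels of rising members, such as KDM7A with Ctrl at 930.2 and 1011 and No glucose at 4216 and 4570, every No glucose point is above both Ctrl points, and in the 4 panels of PRMT1, DNMT3B, PRMT3 and KMT5A every one is below.

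Among the H3K4 erasers the JmjC members and KDM1A moved in opposite directions. KDM5B (JARID1B) was at 7496 and 7353 in Ctrl and 15069.6 and 14113 in No glucose and rose by 0.97 ± 0.05 (adjusted p = 1.52e-07). KDM5C, at 7744 and 7465 in Ctrl and 10758 and 11159 in No glucose, rose by 0.53 ± 0.05 (adjusted p = 1.05e-05). KDM5A, at 9348 and 9213 in Ctrl and 13029 and 12161 in No glucose, rose by 0.44 ± 0.05 (adjusted p = 5.07e-05). All 3 tested KDM5 genes thus rose, in every library, beside 18.9% of the protein-coding genes called higher. All 3 are in the longest of 5 classes of transcript length, where that share was 30.5%. KDM5D was not tested. KDM1A (LSD1), the flavin-dependent enzyme of the CoREST complex, was at 14904 and 15128 in Ctrl and 9120.0 and 8572 in No glucose. Both No glucose values were below both controls, and KDM1A fell by 0.76 ± 0.05 on the log2 scale (adjusted p = 6.84e-07). KDM1B, the other flavin-dependent enzyme, was at 297 and 268 in Ctrl and 328 and 309 in No glucose and was not called (adjusted p = 0.239). The H3K36 erasers were divided with small differences. KDM2A was at 4282 and 4296 in Ctrl and 4839.7 and 4859 in No glucose and rose by 0.18 ± 0.05 (adjusted p = 0.0226). KDM2B was at 4196 and 4001 in Ctrl and 3154 and 3637 in No glucose and fell by 0.27 ± 0.07 on the log2 scale (adjusted p = 0.0111). Neither of these calls held without CTRL_7 or without CTRL_8, and that of KDM2B was also lost with library totals and with the length trend removed.

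Among the enzymes of DNA methylation, 3 of 3 TET genes rose and 2 of 3 tested DNMT genes fell. Of the protein-coding genes 18.9% were called higher and 47.2% lower, so the fall of DNMT genes is not set apart from that background. All 3 TET genes are in the longest of 5 classes of transcript length, where 30.5% of protein-coding genes were called higher. TET2, which oxidizes 5-methylcytosine, was at 2532 and 2430.4 in Ctrl and 5490.2 and 5121 in No glucose, a rise of 1.10 ± 0.06 (adjusted p = 1.73e-07). TET3 was at 3384 and 3273 in Ctrl and 4406 and 4442 in No glucose and rose by 0.41 ± 0.06 (adjusted p = 1.24e-04). TET1 was at 4177 and 4209 in Ctrl and 5355 and 5129.8 in No glucose and rose by 0.32 ± 0.05 (adjusted p = 6.73e-04), a call lost without CTRL_7 and without CTRL_8. None of the 3 genes overlapped between groups, which was also so for 85.3% of the protein-coding genes. The order of TET2 and TET3 changed. Per kb, TET2 was 0.838 and 0.832 times TET3 in Ctrl and 1.40 and 1.29 times in No glucose.

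DNMT1, the maintenance methyltransferase that copies methylation to new DNA strands, was at 15227 and 14916 in Ctrl and 8662 and 9056 in No glucose. No glucose libraries were clearly below Ctrl, and DNMT1 fell by 0.77 ± 0.05 on the log2 scale (adjusted p = 5.37e-07); the gene is at chr19:10133345-10231286, minus strand. DNMT3B, a de novo methyltransferase, was at 1344 and 1273 in Ctrl and 472 and 558 in No glucose and fell by 1.35 ± 0.09 on the log2 scale (adjusted p = 7.20e-07). DNMT3A, the other de novo enzyme, was at 6345 and 6029 in Ctrl and 6649 and 6826 in No glucose and was not called (0.12 ± 0.05, adjusted p = 0.103); it was called higher with library totals, at 0.33, and without ONG_9. Per kb DNMT3A was 2.15 and 2.16 times DNMT3B in Ctrl and 6.43 and 5.58 times in No glucose. Per kb DNMT1 was 4.22 and 4.35 times DNMT3A in Ctrl and 2.29 and 2.33 times in No glucose, still the most abundant DNMT mRNA. DNMT3L, a cofactor without catalytic activity, was at 0 in all libraries.

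Of 7 tested writers of H3K4, 5 rose and 0 fell by limma, with 0 lower also at an unadjusted p under 0.05, with edgeR and with DESeq2; SETD1A was called lower without ONG_10 and SETD7 without ONG_9. The share of these writers called higher was 71.4%, beside 18.9% of the protein-coding genes. All 7 are in the longest of 5 classes of transcript length, where 30.5% of protein-coding genes were called higher. KMT2C and KMT2D, the large enzymes of enhancer H3K4 monomethylation, had the greatest rises among writers. KMT2C was at 5418 and 5409 in Ctrl and 10744 and 10041 in No glucose, a rise of 0.94 ± 0.05 (adjusted p = 2.37e-07). Near-identical partial copies of KMT2C lie elsewhere in the genome, so part of its reads may be shared. KMT2D was at 2427 and 2364 in Ctrl and 4297 and 4880.1 in No glucose, a rise of 0.93 ± 0.07 (adjusted p = 1.26e-06). The No glucose libraries of both genes lay well above their controls.

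KMT2A (MLL1), a promoter H3K4 methyltransferase rearranged in leukaemias, was at 3344 and 3253 in Ctrl and 5629.7 and 5528 in No glucose and rose by 0.76 ± 0.05 (adjusted p = 1.06e-06). AP001267.5 shares 17.9% of its exon bases on the same strand. SETD1B, of the complex for bulk H3K4 trimethylation, was at 714 and 671 in Ctrl and 969 and 1117 in No glucose and rose by 0.59 ± 0.09 (adjusted p = 2.59e-04). Its paralog SETD1A was at 861 and 873 in Ctrl and 676 and 846 in No glucose and was not called (-0.20 ± 0.10, adjusted p = 0.164). KMT2B, the closest paralog of KMT2A, was at 931 and 758 in Ctrl and 1026 and 1318 in No glucose, a rise of 0.47 ± 0.12 (adjusted p = 0.0111). Its libraries were uneven in both groups, and the call was lost without CTRL_8 and without ONG_10. SETD7 was at 2258 to 2456 normalized counts and was not called.

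Of 6 tested writers of H3K9, 3 fell (50%) and 1 rose (16.7%), shares near the 47.2% and 18.9% of the protein-coding genes. SUV39H1 and SUV39H2, which trimethylate H3K9 in heterochromatin, fell together. SUV39H2 was at 2991 and 2861 in Ctrl and 1782 and 1739.9 in No glucose and fell by 0.73 ± 0.06 on the log2 scale (adjusted p = 3.23e-06). SUV39H1 was at 1306 and 1224 in Ctrl and 823 and 804 in No glucose and fell by 0.64 ± 0.07 (adjusted p = 3.64e-05). Their ratio per kb hardly moved, SUV39H1 being 0.452 and 0.443 times SUV39H2 in Ctrl and 0.479 in both No glucose libraries. EHMT2 (G9a), for H3K9 dimethylation, was at 1424 and 1332 in Ctrl and 940.1 and 1087 in No glucose and fell by 0.45 ± 0.08 on the log2 scale (adjusted p = 0.00138), a call lost without CTRL_7 and with limma on library totals. Its partner EHMT1 (GLP) was at 4189 and 3959 in Ctrl and 3522 and 3925 in No glucose and was not called (-0.13 ± 0.07, adjusted p = 0.156). EHMT1 was called lower with edgeR under TMM scaling and without ONG_10, and its sign turned, with no call, with library totals. SETDB1, for H3K9 trimethylation at retroelements, was at 1880.3 and 1866 in Ctrl and 2423 and 2245 in No glucose and rose by 0.32 ± 0.06 (adjusted p = 0.00242), the only 1 of 6 H3K9 writers to do so; this call was lost without CTRL_7 and without CTRL_8. SETDB2 was at 1198 to 1263 normalized counts, with overlapping groups, and was not called. Genes on the opposite strand cover 20.3% of the exon bases of SUV39H1, 13.4% of SETDB1 and 8.12% of EHMT2, and without the counting strand their reads cannot be told apart.

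EZH2, the H3K27 methyltransferase of Polycomb repressive complex PRC2 in dividing cells, was at 5982 and 6154 in Ctrl and 4493 and 4279.5 in No glucose, with both No glucose libraries below both controls, and fell by 0.47 ± 0.05 on the log2 scale (adjusted p = 4.31e-05). EZH1, the paralog known from resting cells, was at 1342 and 1296 in Ctrl and 1595 and 1447 in No glucose and was called higher by a small margin (0.20 ± 0.07, adjusted p = 0.0489), a call lost with edgeR under TMM scaling, with DESeq2 and without CTRL_7, CTRL_8 or ONG_9. Per kb EZH2 was 7.81 and 8.32 times EZH1 in Ctrl and 4.93 and 5.18 times in No glucose. EZH2 stayed the main PRC2 methyltransferase mRNA in each library.

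The writers of H3K36, H3K79 and H4K20 were divided. NSD2, for H3K36 dimethylation and activated in some leukaemias and myelomas, was at 23037 and 22337 in Ctrl and 16009.7 and 15566 in No glucose and fell by 0.52 ± 0.05 on the log2 scale (adjusted p = 6.06e-06). NSD1 was at 2205 and 2142 in Ctrl and 2885 and 2659 in No glucose and rose by 0.35 ± 0.06 (adjusted p = 0.00118). SETD2, the enzyme for trimethylation of H3K36, was at 6682 and 6624 in Ctrl and 8749 and 8211 in No glucose and rose by 0.35 ± 0.05 (adjusted p = 3.29e-04). The NSD1 call was lost without CTRL_7 and without CTRL_8, and that of SETD2 without CTRL_7. NSD3 was at 6226 to 6837 normalized counts, with overlapping groups, and was not called. DOT1L, the H3K79 methyltransferase, was at 1976 and 1787 in Ctrl and 1387 and 1649 in No glucose and fell by 0.31 ± 0.09 on the log2 scale (adjusted p = 0.0164), a call lost without CTRL_7 and with library totals; 11.5% of its exon bases are covered on the opposite strand. Of the H4K20 enzymes, KMT5A (SET8), for monomethylation and tied to the cell cycle, was at 2372 and 2406 in Ctrl and 1287 and 1294 in No glucose. It fell by 0.89 ± 0.06 on the log2 scale (adjusted p = 8.97e-07), and its No glucose libraries were nearly equal. KMT5B, for further methylation of H4K20, was at 2970.2 and 3015 in Ctrl and 4374 and 4010.1 in No glucose and rose by 0.48 ± 0.06 (adjusted p = 7.69e-05). Its paralog KMT5C was at 560.2 and 509.6 in Ctrl and 349 and 421 in No glucose and fell by 0.48 ± 0.11 on the log2 scale (adjusted p = 0.00464), a call lost without CTRL_7, with library totals and with the length trend removed.

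Of the 7 tested arginine methyltransferases 4 fell and 0 rose by limma, with 0 higher also at an unadjusted p under 0.05, with edgeR under TMM scaling and with DESeq2, and 2 (PRMT2 and PRMT9) with library totals. The share called lower was 57.1%, beside 47.2% of the protein-coding genes. PRMT1, the main enzyme of asymmetric arginine dimethylation, was at 8996 and 8272 in Ctrl and 2843 and 3643 in No glucose. Both No glucose libraries were far below both controls. PRMT1 fell by 1.42 ± 0.10 on the log2 scale, the largest fall of the 59 tested members (adjusted p = 7.10e-07). The gene is at chr19:49675786-49689029 on the plus strand. PRMT3, a cytosolic enzyme known to methylate a ribosomal protein, was at 2516 and 2535 in Ctrl and 1079.5 and 1002 in No glucose and fell by 1.28 ± 0.07 on the log2 scale (adjusted p = 1.29e-07). PRMT5, the main symmetric dimethyltransferase, was at 2670.0 and 2689.9 in Ctrl and 1672 and 1555 in No glucose and fell by 0.73 ± 0.06 on the log2 scale (adjusted p = 4.70e-06). PRMT5-AS1 covers 27.1% of its exon bases on the opposite strand, and the counting strand is not given in the sources used here, so their reads cannot be told apart. PRMT7, a monomethylating enzyme, was at 2099 and 1946 in Ctrl and 1237 and 1414 in No glucose and fell by 0.61 ± 0.08 on the log2 scale (adjusted p = 8.92e-05). PRMT2, PRMT6 and PRMT9 were not called, with fold changes of 0.12, -0.16 and 0.01, and PRMT8, known from brain, was at or near 0 and was not tested.

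Members whose histone or DNA methylation activity is absent or unsettled were also divided. KMT2E (MLL5) was at 4105 and 4046 in Ctrl and 6511 and 6081 in No glucose and rose by 0.63 ± 0.06 (adjusted p = 5.85e-06). With it, 5 of 5 KMT2 genes rose, beside 18.9% of the protein-coding genes called higher. All 5 are in the longest of 5 classes of transcript length, where that share was 30.5%. SETD3, an actin histidine methyltransferase, was at 7086 and 6899 in Ctrl and 4775 and 4338 in No glucose and fell by 0.62 ± 0.06 on the log2 scale (adjusted p = 1.02e-05). SETD9 was low, at 192 and 198 in Ctrl and 115 and 114 in No glucose, and fell by 0.76 ± 0.13 (adjusted p = 5.99e-04). The groups did not overlap for KMT2E, SETD3 or SETD9, nor for 85.3% of the protein-coding genes. SETD5 was at 3199 and 3303 in Ctrl and 4073 and 3863 in No glucose and rose by 0.29 ± 0.06 (adjusted p = 0.00228). KDM8, a JmjC protein, was at 216 and 175 in Ctrl and 258 and 264 in No glucose and rose by 0.42 ± 0.13 (adjusted p = 0.0232). The SETD5 call was lost without CTRL_7 and without CTRL_8, as was that of KDM8, which was also lost without ONG_10, with edgeR under TMM scaling and with DESeq2. SETD4, at 534 to 637 normalized counts, and SETD6, at 65.5 to 96.8, were not called. Opposite-strand genes cover 14.5% of the exon bases of KDM8 and 21.4% of those of SETD6. Without these members, 10 of 33 tested writers were higher (30.3%) and 14 lower (42.4%). Of 19 tested erasers 13 were higher (68.4%) and 2 lower (10.5%). These shares stand beside 18.9% of the protein-coding genes called higher and 47.2% called lower.

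Within single libraries the mRNA balance between erasers and writers can be read without regard to scaling. The mean log2 level of the 20 tested erasers minus that of the 39 writers was -0.11 and -0.10 in the Ctrl libraries and 0.53 and 0.52 in the No glucose libraries. The groups were thus separated by 0.63 on the log2 scale, with SDs of 0.0055 in Ctrl and 0.0035 in No glucose. By mark, the difference moved from -0.74 and -0.69 to 0.14 and 0.20 for H3K9, from -1.53 and -1.49 to -0.46 and -0.26 for H3K27, and from -0.62 and -0.59 to 0.75 and 0.59 for TET minus DNMT. For H3K4 it went the other way, from 1.40 and 1.41 to 1.28 and 1.09. Of the 5 tested H3K4 erasers, however, 3 were called higher and 1 lower, KDM1A at -0.76. The part of KDM1A in this difference was not tested. For H3K36 the groups overlapped, at -0.69 and -0.70 in Ctrl and -0.89 and -0.69 in No glucose. The H3K36 erasers here were KDM2A and KDM2B alone. The KDM4 genes and KDM7A were counted for H3K9 only, although KDM4B and KDM4C also act on H3K36 and KDM7A on H3K27. The differences by mark depend on this assignment. These values are descriptions, with each gene weighted equally and no test.

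**Figure D4:**
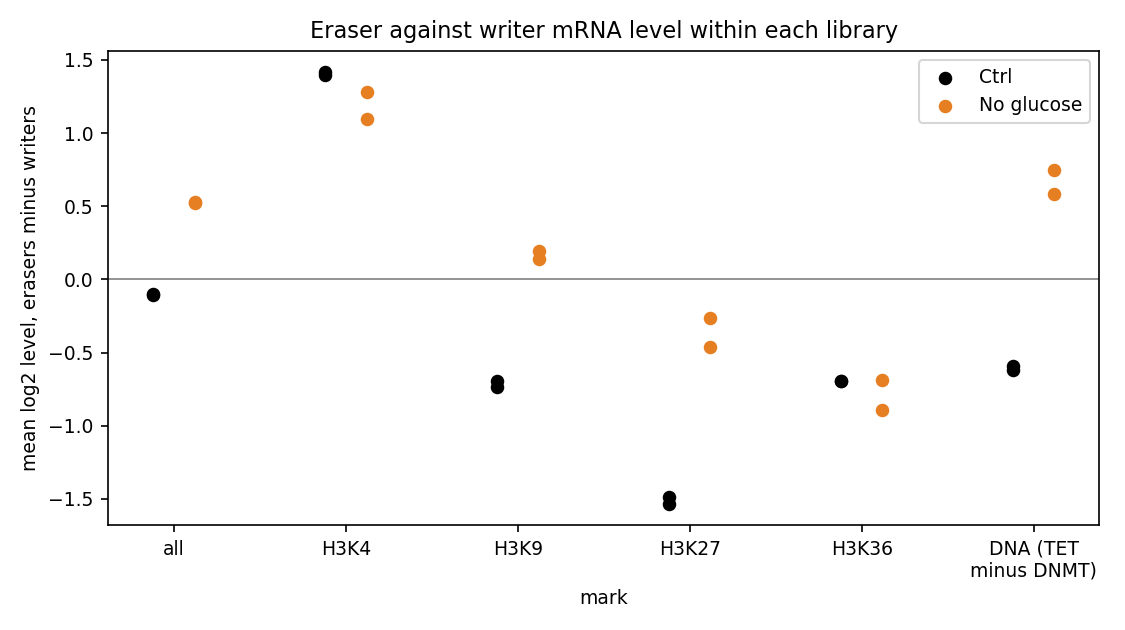
Mean log2 normalized count of erasers minus that of writers in each library (points), for all tested members and by mark; Ctrl in black and No glucose in orange. For all members Ctrl sits at -0.11 and -0.10 and No glucose at 0.53 and 0.52. The difference rises for H3K9, H3K27 and DNA and falls for H3K4. The KDM4 genes and KDM7A are counted for H3K9 only.

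As a share of all recovered reads, erasers took 0.240% and 0.241% in Ctrl and 0.361% and 0.360% in No glucose. Writers took 0.424% and 0.418% against 0.439% and 0.445%. The writers' share of reads was thus slightly higher without glucose although their mean log2 level fell by 0.14. The share is taken over library totals, whereas the log2 level uses size factors, and the 2 scalings differ. Scaled to library totals in limma, the writers' median fold change was 0.15, against -0.06 with size factors. Ordered by level per kb in Ctrl, PRMT1 came first (5121 normalized counts per kb), followed by KDM1A (4909), DNMT1 (2787), NSD2 (2648), SETD3 (2430) and EZH2 (2299). In No glucose the order was KDM1A (2892), PRMT1 (1923), NSD2 (1843), KDM5C (1798), EZH2 (1662), DNMT1 (1638) and KDM3A (1605). Some neighbours in this order did not differ beyond their spread: the libraries of PRMT1 and KDM1A overlapped in Ctrl, and the No glucose libraries of PRMT1 lay on both sides of those of NSD2 and KDM5C. KDM3A changed places with KDM3B, being 0.528 and 0.534 times KDM3B per kb in Ctrl and 1.41 and 1.38 times in No glucose, and KDM5B with KDM5A, from 0.835 and 0.831 to 1.20 and 1.21 times.

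Fold change among the members went with transcript length. Over 58 members with a mean of at least 50, Pearson's r between fold change and the log length of the longest coding transcript was 0.62, with 0.71 over 39 writers and 0.43 over 19 erasers; over 10649 protein-coding genes it was 0.22. These are correlations across genes of the same libraries, given as descriptions. Over protein-coding genes, the median fold change ran from -0.42 to -0.03 over 5 equal classes from the shortest to the longest. Writers in the 3 shorter classes numbered 14, of which 10 fell, among them PRMT1 (1.69 kb) and PRMT3 (2.65 kb), and 0 rose by limma, with 1 higher (SETD6) at an unadjusted p under 0.05, 0 with edgeR under TMM scaling, 0 with DESeq2 and 3 with library totals. Of the protein-coding genes in these classes 13.7% were called higher and 53.0% lower, beside 71.4% of these writers lower. Of 25 writers in the 2 longer classes 12 rose (48%) and 6 fell (24%), and of the protein-coding genes there 26.7% were higher and 38.4% lower. Of 16 erasers in the 2 longer classes 13 rose (81.2%) and 1 fell, and of 3 shorter erasers 1 rose and 1 fell. In the longest class alone, 9 of 16 writers rose and 2 fell, with a median of 0.32. Of 11 erasers there 10 rose and 0 fell by limma, with a median of 0.44. In the class before it the medians were -0.13 over 9 writers and 0.49 over 5 erasers. With the length trend over protein-coding genes removed, the erasers' median was 0.43 and the writers' -0.02, and 42 of the 44 calls were kept in the same direction. The removal also takes out the general fall of protein-coding genes, whose median was -0.20 before it. These medians therefore do not share a baseline with the 0.42 and -0.06 found without it.

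**Figure D5:**
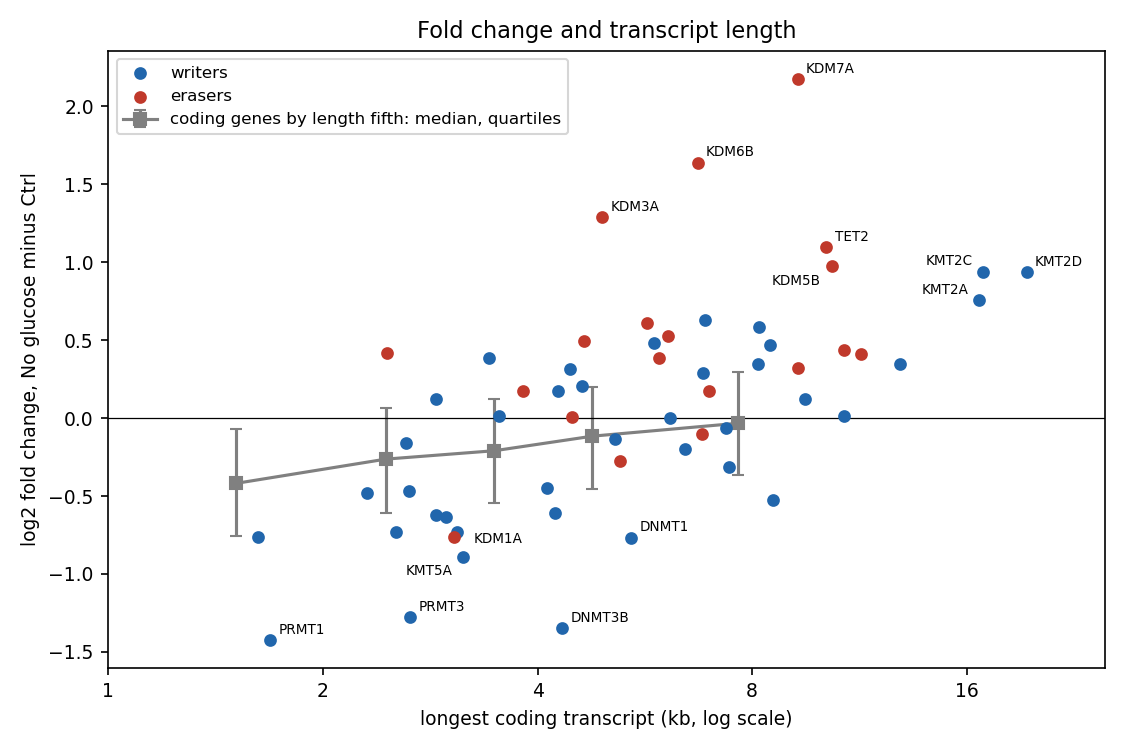
Fold change of members (vertical axis, log2, No glucose minus Ctrl) against the length of their longest coding transcript (horizontal axis, kb, log scale); grey squares with bars give median and quartiles of protein-coding genes in 5 length classes. The grey medians run from -0.42 to -0.03, and KMT2A, KMT2C and KMT2D lie at the long end with fold changes of 0.76 to 0.94.

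Promoters are shown for the members that moved most in mRNA level in each direction. The sequences are the 250 bases before the RefSeq start (GRCh38.p14) of the 3 highest and 3 lowest called members whose RefSeq start lies within 200 bases of a principal start in GENCODE 29, 5′ to 3′ on the gene's strand. Capitals mark ACGTG and GCGTG, core letters of hypoxia response elements, and CCAAT, the letters of the CCAAT box, on either strand; where the E-box CACGTG occurs, ACGTG lies within it on both strands.
KDM7A, chr7:140176984-140177233, minus strand: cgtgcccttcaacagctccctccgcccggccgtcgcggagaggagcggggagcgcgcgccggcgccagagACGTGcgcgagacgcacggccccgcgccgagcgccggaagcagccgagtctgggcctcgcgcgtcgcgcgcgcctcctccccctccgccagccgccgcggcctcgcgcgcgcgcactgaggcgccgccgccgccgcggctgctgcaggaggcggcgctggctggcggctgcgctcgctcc
KDM6B, chr17:7839667-7839916, plus strand: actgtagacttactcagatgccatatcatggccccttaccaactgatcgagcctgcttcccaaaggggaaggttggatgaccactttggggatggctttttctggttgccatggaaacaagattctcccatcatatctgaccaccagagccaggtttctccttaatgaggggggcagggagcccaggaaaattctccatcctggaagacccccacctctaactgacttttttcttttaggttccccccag
KDM3A, chr2:86441211-86441460, plus strand: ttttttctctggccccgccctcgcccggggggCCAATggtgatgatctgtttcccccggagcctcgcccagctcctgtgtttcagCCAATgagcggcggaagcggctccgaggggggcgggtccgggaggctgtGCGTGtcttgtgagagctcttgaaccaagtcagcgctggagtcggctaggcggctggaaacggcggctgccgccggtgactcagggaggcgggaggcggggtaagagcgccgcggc
PRMT1, chr19:49677021-49677270, plus strand: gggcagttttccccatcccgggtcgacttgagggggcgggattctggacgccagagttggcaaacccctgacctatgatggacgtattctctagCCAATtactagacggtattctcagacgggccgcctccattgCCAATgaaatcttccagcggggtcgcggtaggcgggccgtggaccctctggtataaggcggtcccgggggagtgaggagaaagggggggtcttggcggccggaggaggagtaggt
PRMT3, chr11:20387466-20387715, plus strand: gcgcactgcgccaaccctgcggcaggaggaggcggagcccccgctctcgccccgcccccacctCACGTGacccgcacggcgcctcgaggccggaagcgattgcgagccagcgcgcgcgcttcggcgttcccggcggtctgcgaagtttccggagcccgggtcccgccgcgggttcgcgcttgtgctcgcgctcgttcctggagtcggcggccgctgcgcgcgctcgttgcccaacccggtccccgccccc
DNMT1, chr19:10194954-10195203, minus strand: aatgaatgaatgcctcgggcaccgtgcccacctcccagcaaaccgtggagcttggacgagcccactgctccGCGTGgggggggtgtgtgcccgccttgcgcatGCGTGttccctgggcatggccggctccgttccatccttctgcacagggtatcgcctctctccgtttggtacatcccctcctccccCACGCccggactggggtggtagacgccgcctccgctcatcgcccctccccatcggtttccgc

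In these windows KDM7A held 1 ACGTG, KDM3A held 1 GCGTG and 2 CCAAT, PRMT1 held 2 CCAAT, PRMT3 held the E-box, DNMT1 held 3 GCGTG and KDM6B held none of the letters. The window of KDM6B was also the lowest in GC content of all tested members, at 50.4%, against a median of 66.8% over 56 tested members and 58% over 27305 promoters. CCAAT was in 20% of 25 promoters of members that rose and in 58.8% of 17 that fell, with 33.1% of all promoters. CACGTG was in 24.0% of the risers and 11.8% of the fallers, against 6.44% of all promoters. ACGTG was in 32.0% and 23.5%, against 18.5%, and GCGTG in 68.0% and 76.5%, against 32.0%. GCGTG and the GC box GGGCGG (76.0% and 64.7%, against 42.6%) were thus frequent in both directions. TGANTCA, the letters of AP-1, was in 3 of 25 promoters of risers (12%), all erasers, and in 0 of 17 that fell. Over the 56 tested members it was in 5.36%, against 6.60% of all promoters. The E2F letters TTTCCCGC were in 0 risers and 2 fallers (1.43% of all promoters), and TTTGGCGC in 0 members. TGACGTCA was in 0 and 1, and GAANNTTC in 1 and 1. A match describes letters, not a bound site, and 43 of the 56 windows lie within 200 bases of a principal start.

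Over 10 lists of partner proteins, related enzymes and cofactor supply, 18 of 114 tested genes rose (15.8%) and 64 fell (56.1%), beside 18.9% and 47.2% of the protein-coding genes. The counts were 11 and 45 without CTRL_7 and 33 and 49 with library totals in limma. Of 12 partners of DNA methylation, 8 fell and 0 rose by limma, with 1 higher (UHRF2) at an unadjusted p under 0.05, 0 with edgeR under TMM scaling, 0 with DESeq2 and 3 with library totals. UHRF1, which brings DNMT1 to new DNA, was at 8856 and 8101 in Ctrl and 2618 and 3812 in No glucose and fell by 1.42 ± 0.13 on the log2 scale (adjusted p = 6.71e-06). The replication clamp PCNA fell by 1.29 ± 0.05 on the log2 scale (adjusted p = 1.55e-08) and MBD3, of the NuRD complex, fell by 0.88 ± 0.15 (adjusted p = 8.21e-04). Of 9 tested PRC2 partners 2 rose and 4 fell. RBBP7, EED and RBBP4 had fold changes of -0.86 ± 0.05, -0.59 ± 0.07 and -0.49 ± 0.05, and JARID2, a JmjC protein without demethylase activity, rose by 0.37 ± 0.05 (adjusted p = 1.51e-04). RBBP7 and RBBP4 also serve other histone complexes. Of 15 partners of the KMT2 and SETD1 complexes 3 rose and 10 fell, beside 18.9% and 47.2% of the protein-coding genes. Most called partners thus went the other way from the KMT2 enzymes, as did most called protein-coding genes. WDR5, a core subunit, was at 3259.7 and 3224 in Ctrl and 1589 and 1549 in No glucose and fell by 1.05 ± 0.06 on the log2 scale (adjusted p = 2.24e-07). PAXIP1 and DPY30 fell too, with fold changes of -0.86 ± 0.06 and -0.85 ± 0.08, and HCFC2 rose by 0.66 ± 0.08 (adjusted p = 4.99e-05).

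Among 8 partners of arginine methylation 1 rose and 5 fell. For this and the next lists, 18.9% of the protein-coding genes were called higher and 47.2% lower. The lists were not tested as sets. COPRS, which links PRMT5 to histones, was at 1480.1 and 1383 in Ctrl and 443 and 409.7 in No glucose and fell by 1.75 ± 0.08 on the log2 scale (adjusted p = 6.04e-08). CARM1, an arginine methyltransferase whose symbol the naming rule does not reach, fell by 0.96 ± 0.12 and WDR77, the PRMT5 partner, fell by 0.91 ± 0.08. BTG1, an antiproliferative protein that binds PRMT1, was at 1720.2 and 1736 in Ctrl and 5555 and 5277 in No glucose and rose by 1.65 ± 0.06 (adjusted p = 1.47e-08). Of 10 H3K9 methylation partners 1 rose and 5 fell, with fold changes of -0.63 ± 0.08 for TRIM28, -0.60 ± 0.07 for CBX1, -0.58 ± 0.05 for CBX3 and 0.30 ± 0.05 for ATF7IP, the SETDB1 partner. Of 11 eraser partners 4 rose and 4 fell. OGT, which binds TET proteins, rose by 0.68 ± 0.05, PHF21A by 0.64 ± 0.08 and RCOR3 by 0.55 ± 0.07, while GSE1 fell by 0.58 ± 0.06 on the log2 scale. Of 8 tested partners of DOT1L and NSD enzymes 2 rose and 3 fell, with fold changes of -0.54 ± 0.10 for MLLT1, -0.49 ± 0.06 for IWS1, -0.28 ± 0.06 for MORF4L1 and 0.54 ± 0.05 for AFF1, of the elongation complex that DOT1L shares partners with.

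Related enzymes outside the naming rule were also counted. These counts too are to be read beside the 18.9% of protein-coding genes called higher and 47.2% called lower. Of 11 other lysine methyltransferases tested 2 rose and 6 fell, with fold changes of -1.05 ± 0.07 for METTL21A, -0.75 ± 0.07 for SMYD5, -0.51 ± 0.13 for CAMKMT and 0.33 ± 0.06 for ASH1L, an H3K36 enzyme. Of 10 other JmjC proteins 3 rose and 4 fell. JMJD1C, of the KDM3 family, was at 6418 and 6557 in Ctrl and 12544 and 11595 in No glucose and rose by 0.89 ± 0.06 (adjusted p = 3.80e-07). HR, RIOX1 and RIOX2 fell, with fold changes of -0.90 ± 0.12, -0.67 ± 0.07 and -0.65 ± 0.07. Of 21 genes of SAM and alpha-ketoglutarate supply 1 rose and 15 fell. IDH1, which makes alpha-ketoglutarate in the cytosol, was at 1677 and 1661 in Ctrl and 731 and 624 in No glucose and fell by 1.304 ± 0.085 on the log2 scale (adjusted p = 5.20e-07). GOT2, a mitochondrial aminotransferase, and AHCY, which clears the SAM product S-adenosylhomocysteine, had fold changes of -1.25 ± 0.06 (adjusted p = 6.02e-08) and -1.08 ± 0.06 (adjusted p = 1.29e-07). SLC25A26, the mitochondrial SAM carrier, rose by 0.44 ± 0.08 (adjusted p = 0.00106).

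The authors' deposited table called 24 tested members higher and 18 lower at the same threshold, and all 42 were called here in the same direction; 2 more were called here. The table's calls were 11 writers higher and 16 lower, and 13 erasers higher and 2 lower. Of the 44 calls made here, 31 held under each of 13 other fits over all genes, among them edgeR and DESeq2 on recovered reads and the removal of each library. The other 13 were lost in at least 1 fit: DOT1L, EHMT2, EZH1, KDM2A, KDM2B, KDM8, KMT2B, KMT5C, NSD1, SETD2, SETD5, SETDB1 and TET1. Of the 15 members not called, KDM4D alone was called in none of these fits, and the other 14 were called in at least 1. The members with the greatest changes kept their calls: KDM7A ranged from 2.12 to 2.40 over these fits, KDM6B from 1.498 to 1.874, KDM3A from 1.247 to 1.504 and PRMT1 from -1.60 to -1.08.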

How the data were processed

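Total RNA libraries of the TruSeq Stranded kit were sequenced by the authors, 2 per group, per the labels' protocols. Per the submitters' processing notes, the tools were STAR 2.6.0c, RSEM 1.3.0 and DESeq2 1.18.1 on hg38; the annotation release and counting strand are not given in the sources used here. The deposited signal is a normalized count per gene, scaled in each library by the authors with a size factor. Deposited log2 fold changes with their errors, a deposited score (the test statistic) and deposited p-values belong to the authors' own comparison and were used here to count their calls. The 2 ONG columns were assigned to No glucose, since the labels have 2 groups and the other sample columns are named CTRL.

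Size factors of 2.91, 0.748, 0.660 and 0.713 for CTRL_7, CTRL_8, ONG_9 and ONG_10 returned whole reads (within 0.01) for 100% of values. The total per library was 19035535 to 96698709 reads. Of 60609 identifiers, 58457 are in GENCODE 29, the source of coordinates and transcript lengths. The test was limma 3.58.1 with a trend, in R 4.3.3, on log2 of the normalized count plus 1, two-sided, for genes averaging 1 or more; p was adjusted by the Benjamini-Hochberg method over all genes tested. Alternatives were edgeR 4.0.16 and DESeq2 1.42.0 on the recovered reads, library totals, pseudocounts of 0.5 and 5, other filters, removal of the length trend, and leaving out each library. limma was also run on simulated reads that had the same added variation for every gene. That run cannot give the error rate of the calls made here.

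The members, the gene lists and the tests were chosen with earlier results of these data known. The naming rule gave full values to called members with a mean of at least 50 and to members of paralog pairs. From each partner list it took, by size of fold change, at most 3 called genes of the commoner direction and 1 of the opposite one. Promoter windows came from RefSeq, which held 58 members; DNMT3L, DOT1L, KDM4E, NSD3 and SETD1B were not matched.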

Additional observations from a re-analysis of the deposited data

How the results depend on the processing

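No paired analysis was possible because the table's columns show the group but not which labelled replicate each library is. With 2 libraries per group and CTRL_7 the deepest, small differences depended on single libraries. Leaving out 1 library in turn gave 2027 to 4172 genes higher and 3318 to 6387 lower over all genes, 7 to 13 writers higher, 1 to 3 erasers lower, 11 to 23 partner genes higher, a writers median log2 fold change of -0.068 to -0.011 and an erasers median log2 fold change of 0.39 to 0.44. The lowest counts were those without CTRL_7. When a group is left with 1 library, that library is assumed to vary like the other group.

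Scaled to library totals, edgeR called 6735 genes higher, 20 writers higher, 1 eraser lower and 33 partner genes higher, with a writers median log2 fold change of 0.15 and an erasers median log2 fold change of 0.61; limma gave 6106, 19, 1 and 33, with medians of 0.15 and 0.63. edgeR with its usual scaling gave medians of -0.11 and 0.36. DESeq2 called 2436 genes higher, with an erasers' median of 0.40. Removing the length trend gave 3668 genes lower, 1 eraser lower, 28 partner genes higher and medians of -0.018 and 0.43. The trend needs a coding transcript, so fewer genes were tested. Its removal also takes out the general fall of protein-coding genes, so the medians have another baseline. Without members of absent or unsettled activity the writers' median was -0.13. With histone lysine enzymes alone, 10 writers were lower and their median was 0.014, so its sign turned. With a fold change of at least 0.5 required on the log2 scale, a limit chosen after seeing the data, 5 writers and 7 erasers were higher and 1 eraser lower.

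The members that changed sign were ones not called in the first place. With library totals in edgeR and limma the fold changes were 0.081 and 0.079 for EHMT1, 0.11 and 0.11 for KDM3B, 0.051 and 0.053 for PRMT6, 0.029 and 0.013 for SETD1A, 0.15 and 0.15 for SETD7, and 0.21 and 0.21 for SETDB2. edgeR with its usual scaling gave -0.031 for KDM4A, -0.029 for NSD3 and -0.034 for PRMT9. Removing the length trend gave 0.013 for KDM4D, -0.031 for NSD3, 0.082 for PRMT6 and 0.073 for SETDB2. Leaving out 1 library gave -0.077 to 0.090 for KDM4A, -0.55 to 0.14 for KDM4D, -0.054 to 0.081 for NSD3, -0.060 to 0.087 for PRMT9 and -0.040 to 0.036 for SETDB2. Except where the construction of an alternative shows it, the cause was not tested.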
